A study of Mus musculus with 6 samples.

Results

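The genes that decide whether a cell leaves G1 were examined in the open chromatin of mouse nephron progenitors, at mid-gestation and at birth. They are the D-type cyclins Ccnd1, Ccnd2 and Ccnd3, their kinases Cdk4 and Cdk6, the inhibitors Cdkn1a, Cdkn1b, Cdkn1c and Cdkn2a, and Rb1. A region of the count table was assigned to a gene when its midpoint lay in the gene body or within 50 kb of it (mm10). This gave 47 of the 43523 distinct regions, at all 10 genes.

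Nephron progenitors are the mesenchymal cells around the tips of the ureteric bud, from which every nephron epithelium forms. The E14.5 group held 3 libraries of CD1 embryos and the P0 group 3 libraries of CD1 newborns, with no treatment or mutation named in either. Each library came from the pooled kidneys of a litter (up to 24), from which cells binding Itga8 antibodies were taken with magnetic beads, and 50000 cells entered ATAC-seq. The labels do not say outright that the 3 libraries of a stage came from separate litters, so p-values measure the spread between these libraries, which may be technical. In ATAC-seq the transposase Tn5 cuts open DNA, and the counts in a region measure how open it was. Being bulk samples, the libraries cannot separate a change in the share of cells that have a region open from a change in openness per cell.

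A cell in G1 is pushed towards DNA replication by D cyclins, which activate Cdk4 and Cdk6. These kinases phosphorylate the product of Rb1, which otherwise holds E2F transcription factors inactive. The Cip/Kip inhibitors Cdkn1a (p21), Cdkn1b (p27) and Cdkn1c (p57) bind cyclin-Cdk complexes, whereas Cdkn2a encodes both p16Ink4a, an inhibitor of Cdk4 and Cdk6, and p19Arf, a stabiliser of p53. In the kidney the progenitors must divide to keep pace with branching, and cells leaving the pool for podocyte fate are known to switch on p57.

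None of the 47 regions differed between the stages at an adjusted p under 0.05 in edgeR's quasi-likelihood test, against 4.73% of all regions tested. Of all regions, 1.79% passed as higher and 2.94% as lower at P0. Promoter regions passed in 0.851% of cases and other regions in 6.59%, and 30 of the 47 regions were promoters, the class with the lower share. The smallest adjusted p at the 10 genes was 0.131. DESeq2 and limma-voom also called 0 of the 47, against 2778 and 1908 of all 43523 regions. At an unadjusted p under 0.05 there were 3 regions, or 6.38%, against a background of 18.7%. That count was 0 without P0 replicate 2 and 11 without P0 replicate 3. The share of all regions was not counted in those fits, so the 18.7% does not apply to them. The P0 and E14.5 values did not overlap in 5 regions, or 10.6%, against 24.2% of all regions. By class, 1 of the 30 promoter regions and 2 of the 17 others had an unadjusted p under 0.05, against 8.73% and 23.5% of all such regions. For stages that did not overlap the counts were 3 of 30 and 2 of 17, against 16.7% and 27.8%.

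Fitted log2 fold changes (P0 over E14.5) ran from -0.47 to 0.83, with a median of -0.10 against 0.01 over all regions. That median was -0.06 without P0 replicate 2, -0.25 without P0 replicate 3, -0.18 without E14.5 replicate 2 and -0.05 with scaling to total counts. For 42 of the 47 the 95% interval lay wholly between -1 and 1, so that a doubling or a loss of that size was outside it. The other 5 intervals reached past 1. They belonged to the distal region of Ccnd2, 2 regions within Cdk6, the only region of Cdkn1a and a weak region beside Cdkn2a.

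**Figure D1:**
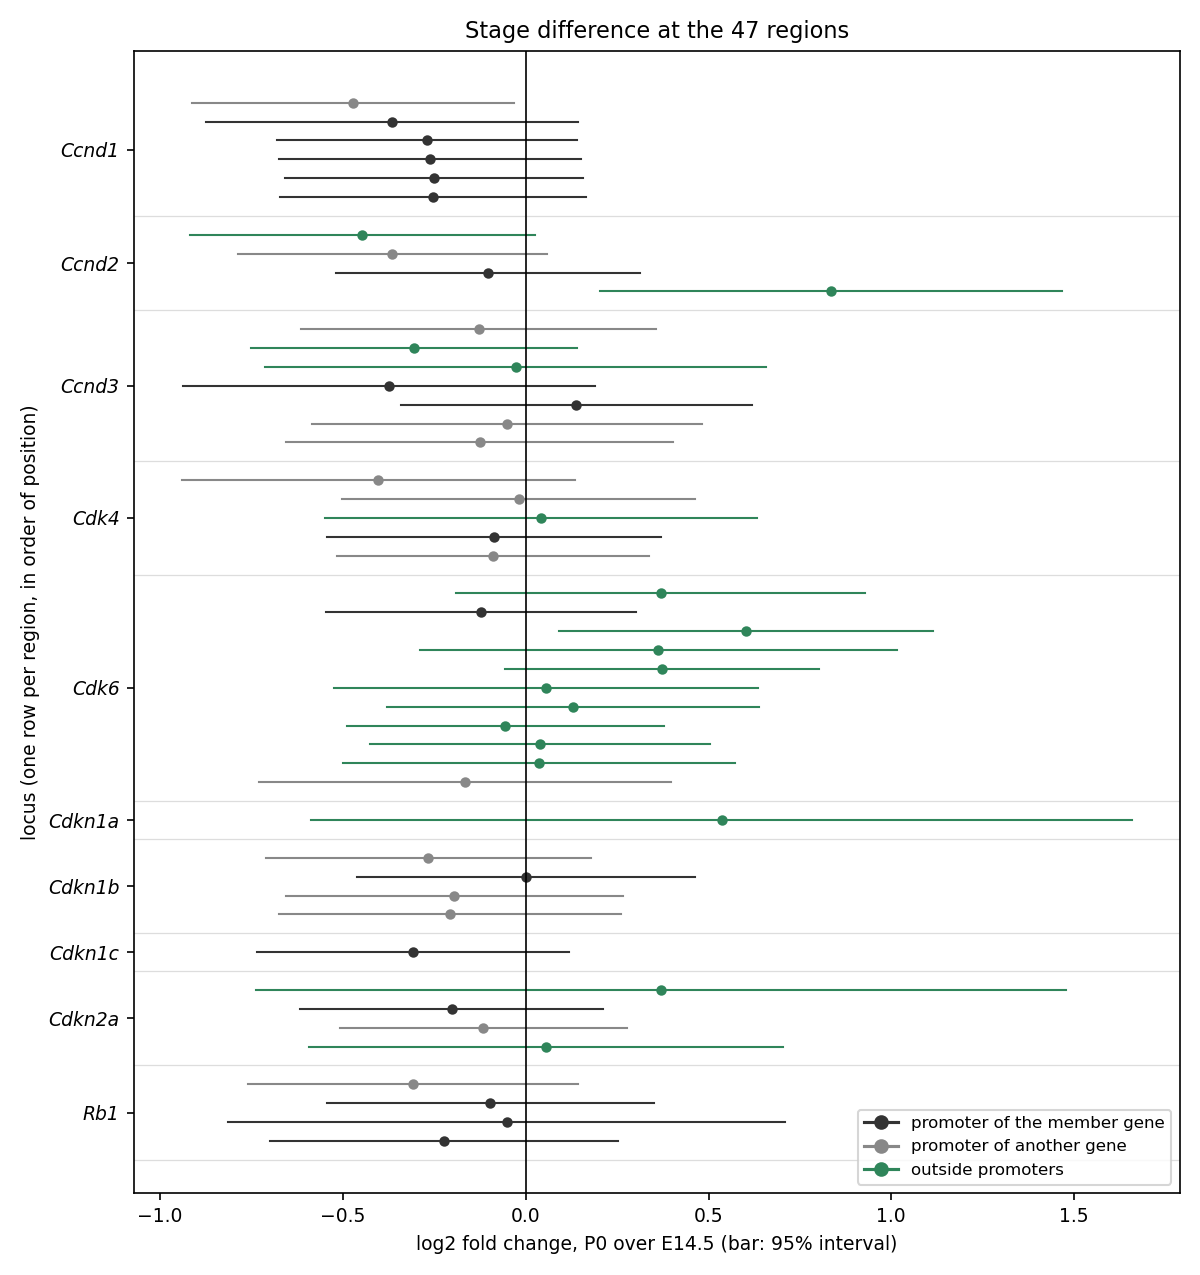
Log2 fold change of accessibility (P0 over E14.5, horizontal axis) with its 95% interval for each of the 47 regions, grouped by gene and ordered by position. Dark points are promoters of the named gene, grey points promoters of neighbouring genes and green points regions outside promoters. Only 3 intervals leave out 0, and no region passed the adjusted threshold.

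**Figure D2:**
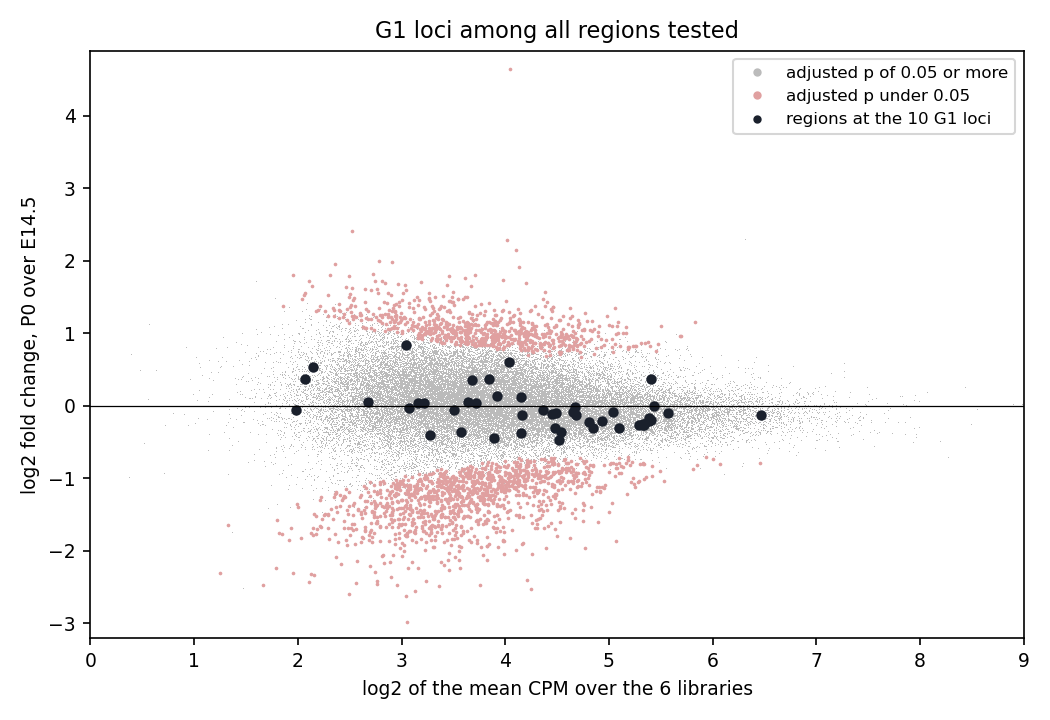
Log2 fold change (vertical axis) against the log2 of the mean CPM over the 6 libraries (horizontal axis) for all regions tested. The 47 regions at the G1 genes (black) lie within the grey cloud of regions that did not pass, and none is among those that passed (pink).

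Depth ranged from 6492996 counts in regions in P0 replicate 2 to 12292629 in P0 replicate 3. Values below are CPM (a library's counts in a region relative to its total in all regions, after TMM scaling), and each series of 6 gives E14.5 replicates 1, 2 and 3 and then P0 replicates 1, 2 and 3. Of 10 genes that mark nephron progenitors, 8 had a region within 10 kb, Six2 and Itga8 among them, and Pax2 and Meox1 did not. Their regions summed to between 385 and 388 CPM at E14.5 and between 334 and 411 CPM at P0. Of the 20, 2 were called lower at P0, against 2.94% of all regions, while the median log2 fold change of the 20 was 0.16. Markers of other cells had regions near 5 of 7 stromal, 4 of 6 endothelial, 4 of 6 ureteric, 3 of 5 immune and 5 of 7 committed nephron genes. Summed CPM of these lists at E14.5 and P0 ran from 147 to 153 and from 131 to 145 for stroma, from 143 to 168 and from 148 to 158 for endothelium, and from 160 to 185 and from 150 to 170 for ureteric epithelium. For the immune list they ran from 79.5 to 93.6 and from 68.4 to 87.1, and for the committed nephron from 335 to 357 and from 336 to 436. The only changed regions near these were 1 of 8 endothelial and 1 of 14 committed nephron regions, both higher at P0, against 1.79% of all regions. Median log2 fold changes were -0.12 for the stromal, 0.02 for the endothelial and -0.19 for the ureteric list. They were -0.17 for the immune and 0.28 for the committed nephron list. What such cells contribute to the values below was not tested.

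Among the D cyclins, Ccnd1 is the classic target of growth factor signals. Its body spans 144929931 to 144939831 on chromosome 7, and it had 2 separate promoter regions. The one over the high-coordinate end of the gene, from 144939437 to 144940349, measured 14.47, 14.0, 11.8, 11.04, 7.72 and 12.2 CPM. The stages overlapped, since P0 replicate 3 lay above E14.5 replicate 3, and the difference was -0.37 on the log2 scale (SE 0.24), which did not pass (adjusted p = 0.452) and was -0.21 without P0 replicate 2. The larger promoter region lay just outside the gene, from 144941116 to 144943714, and is marked in the table as overlapping a FANTOM enhancer. It measured 41.0, 48.2, 43.1, 39.9, 30.4 and 39.2 CPM. Every P0 library was below every E14.5 library there, but the gap between 39.9 and 41.0 CPM was small and the log2 fold change of -0.27 (SE 0.19) did not pass (adjusted p = 0.498) and was -0.16 without P0 replicate 2. This region was listed 4 times with slightly shifted ends, and in the other 3 versions, with log2 fold changes from -0.26 to -0.25, the stages overlapped.

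The lowest fold change of the 47 also lay at this locus, though not in a promoter of Ccnd1. It was the promoter region of the neighbouring gene Oraov1 (LTO1 in RefSeq), 14.8 kb from Ccnd1 (144914335 to 144915921), with 25.4, 26.7, 28.1, 21.9, 14.1 and 21.5 CPM. All P0 values were below all E14.5 values, and the log2 fold change of -0.47 (95% interval -0.91 to -0.03) had an unadjusted p of 0.0371 in edgeR and an adjusted p of 0.228. It was -0.30 without P0 replicate 2.

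Ccnd2, another D cyclin, had a single promoter region, from 127149961 to 127154337 on chromosome 6, one of the longest of the set at 4377 bp. Its values of 44.4, 48.8, 54.1, 43.8, 40.1 and 52.9 CPM overlapped between stages, with a log2 fold change of -0.10 (95% interval -0.52 to 0.31), which was -0.02 without P0 replicate 2 and -0.24 without P0 replicate 3. A weaker region beyond the promoter end of the gene, 29.3 kb away, showed the opposite direction. This region (127180797 to 127182157), inside the gene ENSMUSG00000097166 and outside its exons, measured 6.999, 4.64 and 6.07 CPM at E14.5 and 8.95, 14.4 and 8.45 CPM at P0. All P0 libraries lay above all E14.5 libraries, P0 replicate 2 by the most. The log2 fold change of 0.83 (SE 0.30, 95% interval 0.20 to 1.47) was the highest of the 47 and did not pass (adjusted p = 0.131), and it was 0.57 without P0 replicate 2. On the other side of Ccnd2, 45.1 kb off, a region over an exon of the hormone gene Fgf23 (127079176 to 127080973) had 17.7, 15.2, 18.6, 10.4, 11.7 and 15.4 CPM. There P0 replicate 3 was above E14.5 replicate 2, and the difference of -0.45 on the log2 scale (SE 0.22) did not pass (adjusted p = 0.300).

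Ccnd3, which is best known from lymphoid cells, spans 94.6 kb of chromosome 17 and was the D cyclin with the most regions, 7. RefSeq gives it starts at 47505051 and 47593467. The upstream start lay in no region, the nearest being 2.2 kb off at the promoter of Taf8. The downstream start lay in the region from 47593035 to 47594223, with 22.0, 20.1, 18.7, 13.1, 9.99 and 23.1 CPM. P0 replicate 3 was the highest of all libraries and P0 replicate 2 the lowest, so the mean difference (log2 fold change -0.37, SE 0.26, adjusted p = 0.494) rested on which P0 library was counted: it was -0.82 without P0 replicate 3 and -0.15 without P0 replicate 2. A neighbouring region at 47595249 to 47596659, also annotated as a Ccnd3 promoter and named here outside the rule, had the highest log2 fold change of any promoter in the set, 0.14 (SE 0.23, adjusted p = 0.805).

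Within Ccnd3 and away from promoters, the region with the highest CPM (47511065 to 47512485) measured 28.4, 19.7, 26.2, 19.1, 17.1 and 23.4 CPM. Here too the stages overlapped, and the difference was -0.31 on the log2 scale (SE 0.21, adjusted p = 0.476), or -0.46 when P0 replicate 3 was left out and -0.20 when E14.5 replicate 1 was. The table lists matches of Jun, Junb and Jund, factors of the AP-1 family, in it. Another region within the gene, from 47521476 to 47522392, was the only one of the 47 that the table annotates with an element of the VISTA enhancer collection, a label carried by 0.655% of all regions. It measured 9.96, 4.91, 10.6, 6.04, 9.08 and 9.71 CPM, and its log2 fold change was -0.03 (95% interval -0.71 to 0.66).

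Cdk4, the first of the kinases, is a compact gene of 3.75 kb on chromosome 10, surrounded by promoters of other genes. Its start at 127063535 lay in a region from 127063029 to 127065806 that covers much of the gene. This region measured 42.2, 28.8, 31.2, 32.2, 25.6 and 38.0 CPM, with the stages fully interleaved. The log2 fold change was -0.09 (95% interval -0.55 to 0.37), and it turned to 0.10 without E14.5 replicate 1 and to 0.05 without P0 replicate 2. The bases before the start are printed because 4 copies of the E-box CACGTG, the core bound by Myc and Max, stand in them (capitals). Such a copy was found in 6.02% of the 32851 RefSeq promoter windows of that length, and 3 or more copies in 0.0609%. The sequence is 5′ to 3′ on the plus strand, from RefSeq, GRCm38.p6, chr10:127063285-127063534, and a match says nothing of whether a factor was bound.
Cdk4, 250 bases before the start: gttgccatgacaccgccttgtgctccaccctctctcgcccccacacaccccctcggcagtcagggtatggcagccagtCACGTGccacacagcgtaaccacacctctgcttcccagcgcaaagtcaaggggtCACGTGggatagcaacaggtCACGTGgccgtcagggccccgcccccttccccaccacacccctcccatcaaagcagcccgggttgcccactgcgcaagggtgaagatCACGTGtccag

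The other 4 regions at Cdk4 lay at promoters of Tsfm, Mettl1 and Tspan31 and over an exon of March9. The Tsfm promoter region (127030021 to 127031226), 32.9 kb away, measured 9.73, 11.04, 12.5, 9.68, 6.36 and 8.92 CPM. All P0 values were below all E14.5 values, with 9.68 and 9.73 CPM as the closest values, and the log2 fold change was -0.40 (SE 0.25, adjusted p = 0.429), or -0.25 without P0 replicate 2. At the March9 exon (127057785 to 127058893) the log2 fold change was 0.04 (95% interval -0.55 to 0.63), with either sign when single libraries were left out, and for Mettl1 and Tspan31 it was -0.02 and -0.09.

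Cdk6, the partner kinase, lies on chromosome 5 over 190.0 kb and held 11 of the 47 regions, more than any other gene of the set. Its promoter region (3340699 to 3345310) had the most counts of the 47, with 81.3, 89.1, 106, 84.7, 79.8 and 89.7 CPM. The stages overlapped, with a log2 fold change of -0.12 (95% interval -0.55 to 0.30), which was -0.20 without E14.5 replicate 1, -0.08 without P0 replicate 2 and -0.0078 without E14.5 replicate 3. In contrast to the promoter, 8 of the 9 regions outside promoters had log2 fold changes above 0, with a median of 0.13 and a range from -0.06 to 0.60. Over all regions outside promoters the median was 0.10, close to that of Cdk6.

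The highest of these, from 3428864 to 3430625, overlapped an exon and lay midway through the gene. It measured 9.37, 17.9 and 11.6 CPM at E14.5 and 18.9, 21.0 and 19.5 CPM at P0. Each P0 library lay above each E14.5 library, with E14.5 replicate 2 close behind them. The log2 fold change of 0.60 (SE 0.24, 95% interval 0.09 to 1.11) had an unadjusted p of 0.0242 in edgeR and an adjusted p of 0.183. Without E14.5 replicate 2 it was 0.90 with an adjusted p of 0.0311 in edgeR, in a fit that called 2987 of all 43523 regions. It was the only region of the 47 to pass in any of the fits, against adjusted p-values from 0.116 to 0.494 in the others. A few kilobases on, the region of Cdk6 outside its promoter with the highest CPM (3435479 to 3439308, 3830 bp long) measured 40.2, 34.2, 36.2, 46.5, 57.8 and 39.2 CPM. P0 replicate 3 was below E14.5 replicate 1 there, and the log2 fold change was 0.37 (SE 0.20, adjusted p = 0.345), or 0.22 without P0 replicate 2. Per length, a neighbouring region of 683 bp (3433132 to 3433814) was the more open, with 18.8 against 11.1 CPM per kb over the 6 libraries. Towards the 3′ part of the gene, 3 regions between 3490516 and 3527700 had log2 fold changes from -0.06 to 0.04, near equality.

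**Figure D3:**
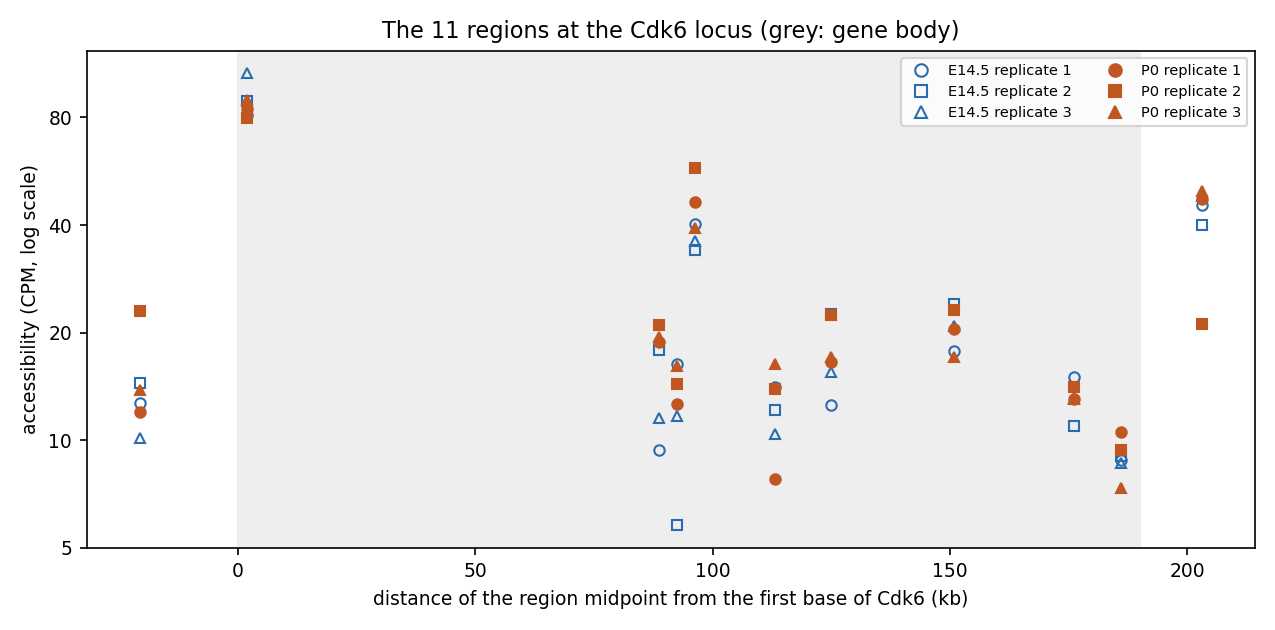
Accessibility (CPM, log axis) of the 11 regions at Cdk6 against the distance of each region's midpoint from the first base of the gene in kb, with the gene body shaded. Open blue symbols are the 3 E14.5 libraries and filled orange symbols the 3 P0 libraries, with 1 shape per replicate. The promoter region stands highest in every library, and in the exon region with 9.37 to 17.9 CPM at E14.5 all P0 symbols lie above the E14.5 symbols.

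Among the inhibitors, Cdkn1b had the most counts per length of the genes' own promoter regions. This gene restrains Cdk2 complexes in resting cells. Its start at 134920401 on chromosome 6 lay in a region from 134919509 to 134921445 with 41.3, 40.3, 48.8, 42.8, 32.1 and 55.0 CPM. The P0 libraries spanned the whole range of the E14.5 libraries, and the log2 fold change of 0.0009 (SE 0.22, 95% interval -0.46 to 0.46) was the closest to 0 of the 47. The promoter regions of unnamed genes on either side gave -0.27 (ENSMUSG00000100876, 22.4 kb before Cdkn1b) and, in 2 overlapping versions 2.6 kb after it, -0.20 and -0.21. The first of these measured 40.3, 43.4, 44.8, 37.6, 26.2 and 42.7 CPM, with P0 replicate 3 among the E14.5 values (adjusted p = 0.544), and its difference was -0.09 without P0 replicate 2 and -0.44 without P0 replicate 3.

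Cdkn1c, an imprinted gene expressed from the maternal allele, had 1 region, which covers most of the gene (chromosome 7, 143458902 to 143462068). Its values were 34.8, 27.2, 33.8, 26.3, 20.9 and 29.5 CPM. P0 replicates 1 and 2 lay below all E14.5 libraries and replicate 3 did not, a difference of -0.31 on the log2 scale (SE 0.20, 95% interval -0.74 to 0.12, adjusted p = 0.446). It was -0.19 without P0 replicate 2. Counts do not separate the alleles.

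Cdkn1a, the inhibitor induced by p53, stood apart in having no promoter region among those used here. RefSeq lists 2 starts, at 29090979 and 29093769 on chromosome 17, and the nearest region began 14.8 and 12.0 kb from them. That region, intergenic and 3428 bp long (29105782 to 29109209), was weak, with 4.03, 1.14, 5.61, 3.02, 9.23 and 3.55 CPM from 13 to 61 counts. P0 replicate 2 was highest and E14.5 replicate 2 lowest, with the others mixed. The log2 fold change was 0.54 (95% interval -0.59 to 1.66, adjusted p = 0.645), and it was -0.10 without P0 replicate 2 and 0.07 without E14.5 replicate 2.

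Cdkn2a (chromosome 4, minus strand) also has 2 starts in RefSeq, and only the upstream one was in a region. By position these are the start of the p19Arf transcript at 89294619 and that of the p16Ink4a transcript at 89282192. The region over the p19Arf start (89294218 to 89296274) measured 28.8, 34.5, 34.7, 27.7, 24.2 and 33.0 CPM, with overlapping stages and a log2 fold change of -0.20 (95% interval -0.62 to 0.21), which was -0.11 without P0 replicate 2 and -0.35 without P0 replicate 3. The p16Ink4a start was 12.0 kb from the nearest region. The promoter region of Cdkn2b, which encodes the related inhibitor p15, lay in the same window (89310176 to 89311613), with 23.8, 23.0, 21.4, 22.1, 19.5 and 21.3 CPM and a log2 fold change of -0.12 (95% interval -0.51 to 0.28). The 2 weaker regions nearby, from 89264599 to 89265173 and from 89313274 to 89314168, averaged 4.19 and 6.39 CPM, with log2 fold changes of 0.37 (95% interval -0.74 to 1.48) and 0.06, each with either sign when single libraries were left out.

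The bases before the starts of Cdkn2a and Cdkn1a, and of Cdkn1b for comparison, are shown because they set starts inside and outside regions side by side. Capitals mark CpG dinucleotides. All are 5′ to 3′ on the strand of the gene, from RefSeq, GRCm38.p6. The windows are chr4:89294620-89294869 (minus strand), chr4:89282193-89282442 (minus strand), chr17:29090729-29090978, chr17:29093519-29093768 and chr6:134920151-134920400 (plus strand), in the order printed.
Cdkn2a, start of p19Arf, in a region: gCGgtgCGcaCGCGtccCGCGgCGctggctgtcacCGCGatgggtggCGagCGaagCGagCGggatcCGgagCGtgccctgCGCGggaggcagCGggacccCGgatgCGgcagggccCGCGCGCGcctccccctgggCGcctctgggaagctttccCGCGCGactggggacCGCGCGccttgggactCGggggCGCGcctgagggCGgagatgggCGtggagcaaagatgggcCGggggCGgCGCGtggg
Cdkn2a, start of p16Ink4a, outside regions: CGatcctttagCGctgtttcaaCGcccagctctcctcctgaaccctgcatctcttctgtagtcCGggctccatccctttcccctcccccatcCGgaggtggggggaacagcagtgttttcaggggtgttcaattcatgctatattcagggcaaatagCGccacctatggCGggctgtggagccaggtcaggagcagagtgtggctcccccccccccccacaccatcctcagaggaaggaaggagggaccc
Cdkn1a, first start, outside regions: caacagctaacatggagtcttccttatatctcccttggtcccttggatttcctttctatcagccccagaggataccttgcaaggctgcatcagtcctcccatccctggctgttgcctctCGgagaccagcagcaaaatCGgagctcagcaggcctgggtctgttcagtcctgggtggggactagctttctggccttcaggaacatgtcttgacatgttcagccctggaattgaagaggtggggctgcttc
Cdkn1a, second start, outside regions: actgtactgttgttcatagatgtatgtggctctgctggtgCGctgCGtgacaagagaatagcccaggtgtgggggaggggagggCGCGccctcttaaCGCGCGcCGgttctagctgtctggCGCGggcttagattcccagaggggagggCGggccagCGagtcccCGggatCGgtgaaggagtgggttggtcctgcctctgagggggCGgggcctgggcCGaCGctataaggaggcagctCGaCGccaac
Cdkn1b, in a region: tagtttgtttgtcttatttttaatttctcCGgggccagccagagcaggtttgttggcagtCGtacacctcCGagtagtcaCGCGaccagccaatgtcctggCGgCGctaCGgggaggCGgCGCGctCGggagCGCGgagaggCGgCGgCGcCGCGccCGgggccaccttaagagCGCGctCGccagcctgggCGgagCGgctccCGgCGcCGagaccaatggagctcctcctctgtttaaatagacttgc

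The p19Arf and Cdkn1b windows were dense in CpG, with 40 and 28 dinucleotides and an observed over expected ratio of 1.08 in each. The p16Ink4a window held 7 (ratio 0.316) and the window of the first Cdkn1a start 2 (ratio 0.110). The second Cdkn1a start differed from both of these, with 19 CpG and a ratio of 0.771. Of all RefSeq starts with a ratio of at least 0.6, 82.6% lay in a region, against 19.9% of those below it, so this start was among the minority that did not. The Cdk4 start went the other way, lying in a region with 13 CpG and a ratio of 0.536. The upstream Ccnd3 start, outside regions, had 11 and 0.506. The downstream Ccnd3 start and that of Cdk6, both in regions, had ratios of 0.729 and 0.842. The first Cdkn1a window held 2 matches of the p53 half-site, GGACTAGCTT and GAACATGTCT, and 7.13% of all windows held at least 1. Tables of promoter windows matched 6 of the 10 genes with 9 starts, of which 5 lay in a region, against 41.2% of all starts. Ccnd1, Ccnd2, Cdkn1c and Rb1 were not matched.

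Short words were also searched in these 9 windows on both strands. The E2F words were TTTCCCGC, TTTGGCGC, TTTCGCGC and TTTGCCGC, of which the p19Arf window held 1 copy and the other 8 windows none, against 1.86% of all windows with at least 1. GGGCGG, the core of the GC box, was found in 6 of the 9 windows, against 32.7% of all, and TATAAA in that of Cdk6 alone, against 12.4%.

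Rb1 encodes the pocket protein that D cyclin kinases inactivate, and it is listed with 3 promoter regions over its 133 kb on chromosome 14. The one at the high-coordinate end of the gene (73324533 to 73327033) measured 29.2, 30.9, 31.0, 23.3, 18.9 and 35.1 CPM. P0 replicate 3 was above and P0 replicates 1 and 2 below all E14.5 libraries, which were tightly grouped. The log2 fold change was -0.22 (95% interval -0.70 to 0.25, adjusted p = 0.651), and it was -0.05 without P0 replicate 2 and -0.53 without P0 replicate 3 (adjusted p = 0.151 in edgeR). The promoter region within the gene at 73237600 to 73239962, which the table also places in Lpar6, a receptor gene nested in Rb1, had 22.0, 22.7, 25.1, 22.0, 16.2 and 26.6 CPM and a log2 fold change of -0.10, or 0.0655 without P0 replicate 2 and -0.29 without P0 replicate 3. A short region of 424 bp (73263907 to 73264330) averaged 3.95 CPM, with a log2 fold change of -0.05 (95% interval -0.81 to 0.71), again with either sign when single libraries were left out. At the edge of the window, the promoter region of Rcbtb2 (73142133 to 73144537) measured 29.7, 42.7, 41.1, 29.5, 25.3 and 36.6 CPM, a difference of -0.31 on the log2 scale (SE 0.21, adjusted p = 0.481) that was -0.19 without P0 replicate 2 and -0.48 without P0 replicate 3.

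**Figure D4:**
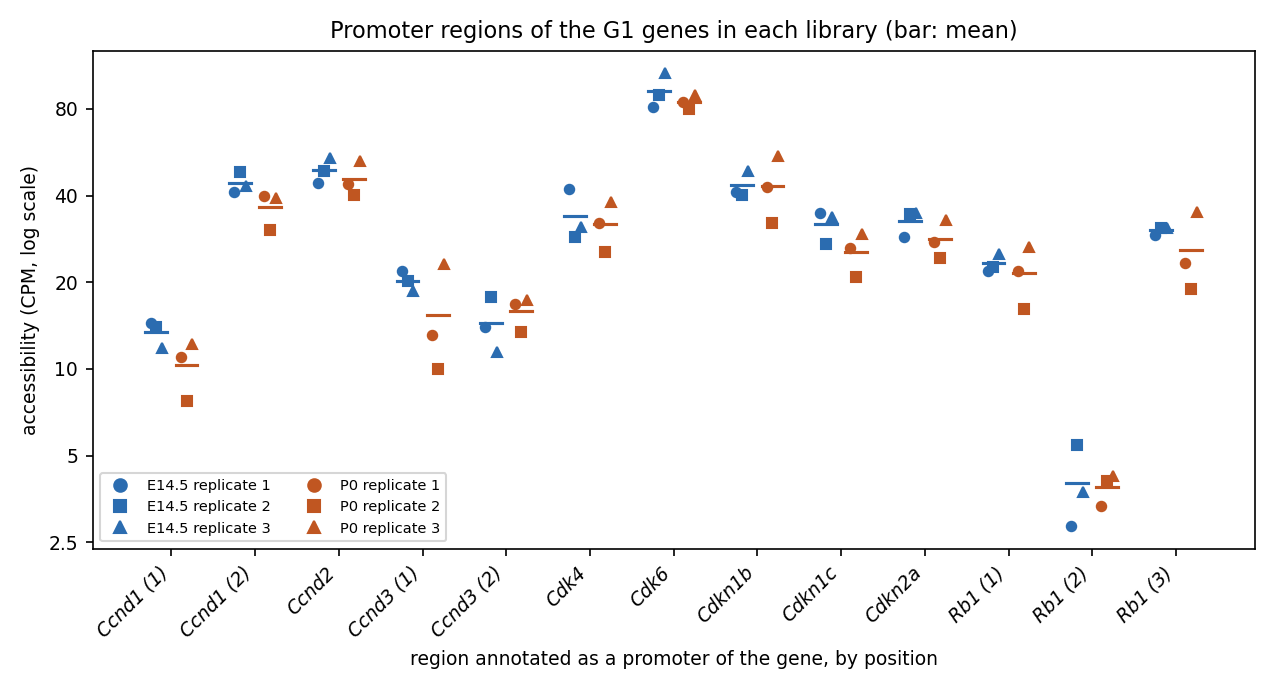
Accessibility (CPM, log axis) of the 13 separate promoter regions of 9 of the genes in each library, with E14.5 in blue and P0 in orange, 1 symbol shape per replicate number and a bar at each mean. Numbers in brackets order the regions of a gene by position. The Cdk6 region stands highest, at 79.8 to 106 CPM, and the square of P0 replicate 2 is the lowest symbol of most regions.

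Per length, the order of the genes' own promoter regions was led by Cdkn1b, with 22.4 ± 2.41 CPM per kb in the E14.5 libraries and 22.4 ± 5.93 in the P0 libraries (mean ± SD, n = 3 per stage). Cdk6 came next with 19.99 ± 2.77 and 18.4 ± 1.08 CPM per kb, and Cdkn1c stood last over all 6 libraries, with 10.1 ± 1.30 and 8.08 ± 1.38. At E14.5 alone, 2 of the Rb1 regions were lower than Cdkn1c, at 9.84 ± 0.700 and 9.45 ± 3.10 CPM per kb. Between these extremes, the main promoter regions of Ccnd1, Ccnd3 and Cdkn2a measured 17.0 ± 1.41, 17.0 ± 1.37 and 15.9 ± 1.62 CPM per kb at E14.5, and those of Cdk4, Rb1 and Ccnd2 12.3 ± 2.58, 12.1 ± 0.404 and 11.2 ± 1.11. The ranges of the 6 libraries overlapped between all 12 pairs of neighbours in this order. Within libraries, Cdk6 was above its next neighbour, the larger region of Ccnd1, in all 6, and in the other 11 pairs the upper region was the higher in 2 to 5 of the 6. All 6 libraries of Cdk6 (17.3 to 23.0) were above all of Cdkn2a (11.8 to 16.9) and of Cdkn1c (6.59 to 10.97). The median over all promoter regions was 12.8 CPM per kb, so the genes of this set lay on both sides of it.

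Promoters and other regions leaned in different directions. With overlapping versions counted once, 24 of 26 promoter regions at these loci had log2 fold changes below 0, with a median of -0.15, and 13 of 17 other regions had them above 0, with a median of 0.06. Over all regions, 9300 of 14097 promoter regions were below 0 and 17437 of 29426 others above 0, with medians of -0.10 and 0.10, the same signs as at these loci. With scaling to total counts, 22 of the 26 promoter regions were below 0 and the median was -0.09, while 14 of the 17 others were above 0 with a median of 0.12. That scaling moved the median over all regions from 0.01 to 0.07. P0 replicate 2, the shallowest library, was the lowest of the 6 in 22 of the 26 promoter regions, and in 49.4% of all promoter regions. Without it 17 of the 26 were below 0 and the median was -0.06, and over all promoter regions 7722 of 14097 were below 0 with a median of -0.03. Without P0 replicate 3 it was -0.34, with 25 of 26 below 0. For the 17 regions outside promoters, leaving out P0 replicate 2 gave a median of 0.0027 with 8 below 0, and all 29426 such regions likewise gave a median of 0.0086 with 14476 below 0. Leaving out any other library gave them medians from 0.05 to 0.19. The part of these libraries in the pattern was not tested beyond these values.

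The table's annotation gave further features of the promoter regions. E2F motif matches were listed in promoter regions of 6 of the 9 genes that have one (Ccnd1, Ccnd2, Ccnd3, Cdk4, Cdkn1b and Cdkn1c), in 6 of 13 regions, and in 33.6% of all promoter regions. None was listed for Cdk6, Cdkn2a or Rb1. The region of Cdkn2a carried only forkhead names, a family listed in 15.3% of all promoter regions. Outside promoters, 0 of 17 regions listed an E2F match, against 6.32% of all such regions. FANTOM enhancers are marked at 9 of the 43 separate regions, against 9.65% of all regions. That share was not split by class, and 26 of the 43 were promoter regions. The table's header names the older build mm9 for that column, and whether the enhancers were converted to mm10 is not given in the sources used here.

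The wider G1/S pathway was examined in the same way. The further genes numbered 26, among them the E-type cyclins, Cdk2, the E2F family, the pocket proteins Rbl1 and Rbl2 and p53. At 25 of these, 101 regions were tested and 0 passed, against 4.73% of all regions, 0.851% of promoter regions and 6.59% of others. The gene without one was Cdkn2b, whose promoter region is counted at Cdkn2a. At an unadjusted p under 0.05 there were 7, or 6.93%, against 18.7% of all regions, 8.73% of promoter regions and 23.5% of others. The 101 were not split by class, so no share of like make-up stands beside these counts. Log2 fold changes of the 101 ran from -0.72 to 0.64 with a median of -0.15, and the smallest adjusted p was 0.132. DESeq2 and limma-voom also called 0 of them, against 2778 and 1908 of all 43523 regions. Without P0 replicate 3 edgeR called 2 of them and 2245 of all regions. The authors' deposited table classed all 47 regions of the 10 genes as stable, with adjusted p-values from 0.234 to 0.998. The share of all regions in that class was not counted, and those values come from the same libraries.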

How the data were processed

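ATAC-seq counts of 6 libraries of Itga8-selected nephron progenitors, 3 at E14.5 and 3 at P0, were grouped by their source names, and 0 sample columns were left unmatched. The deposited table gives whole-number counts per region and library, per the file headers. Its build is mm10, per the submitters' processing notes. The aligner, peak caller, counting rule, Tn5 shift and duplicate removal are not given in the sources used here, so their effect on the counts is unknown. The authors' deposited log2 fold change, score (t and B statistics), p-value and adjusted p-value come from a model that is not described, and only the adjusted p-value and class are quoted.

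Of 45489 rows, 1966 repeated a region and were dropped. Gene names came from identifier pairs in the table. By these names, 99.94% of the promoter annotations found in RefSeq (GRCm38.p6, the same assembly as mm10) lay on the chromosome of their gene. Gene spans, starts and sequences are from RefSeq.

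All 43523 regions were fitted with edgeR 4.0.16 in R 4.3.3 (TMM, filterByExpr, which removed 0 regions, quasi-likelihood test on a model of stage alone, Benjamini-Hochberg over all regions). The SE is the log2 fold change divided by the root of the F statistic, and 95% intervals use the test's degrees of freedom. The fit was tested on simulated data. Alternatives were other scalings, filters, windows and thresholds, DESeq2 1.42.0, limma 3.58.1 (voom), a replicate block and leaving out each library. Same-numbered libraries were not paired.

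The members and lists were chosen with earlier results of these data known. Regions named are those over a gene's start or, where no start is known, its annotated promoters, any region past the threshold, the region with the highest mean CPM outside promoters and the region with the largest absolute fold change at each gene. Others are named after their values were seen.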

Additional observations from a re-analysis of the deposited data

How the results depend on the processing

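The number of changed regions at the 10 genes was 0 under DESeq2 size factors, total-count scaling, other filters, DESeq2, limma-voom, windows of 10 and 100 kb, any overlap with the window, a threshold of 0.1, overlapping regions left out and the replicate block. Leaving out 1 library gave 0 to 1 regions, the 1 being the Cdk6 exon region without E14.5 replicate 2, and the cause was not tested. At the other G1/S genes leaving out 1 library gave 0 to 2 regions, the 2 without P0 replicate 3; these settings were chosen for that list after seeing the data. Of 389 alternative values for the 28 named regions, 368 kept their direction and side of the threshold and 20 changed sign, at 8 regions, none of them past the threshold. The Cdkn1b promoter value of 0.0009 turned to -0.0045 with DESeq2 size factors, -0.0046 with the DESeq2 Wald test, -0.0369 with limma-voom and -0.0306 with the replicate block. When single libraries were left out it ran from -0.23 to 0.17. The other sign changes came from leaving out a library, with ranges of -0.18 to 0.33 (March9 exon), -0.25 to 0.10 (Cdk4 promoter), -0.10 to 1.03 (Cdkn1a), -0.11 to 1.13 and -0.12 to 0.33 (the 2 weak regions at Cdkn2a), -0.29 to 0.0655 (Rb1, 73237600) and -0.24 to 0.23 (Rb1, 73263907). In the same fits the Cdk6 exon region ran from 0.42 to 0.90. Deviations of same-numbered libraries of the stages had correlations of 0.07, -0.14 and 0.08 for replicates 1, 2 and 3. Differently numbered libraries had correlations from -0.24 to 0.19. These values gave no ground to pair the numbers, but they cannot settle whether libraries of different stages shared a batch. Few counts limit the weakest regions, as at Cdkn1a with 13 to 61.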

Other observations

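The deposited table also lists, for many regions, predicted target genes with a score and cell types. For the 10 G1 genes it held 107 such pairs of a region and a gene, and 0 of them placed the region on the chromosome of the gene. Regions paired with Cdk4, for example, numbered 14, and those paired with Cdkn1b 16. Over all named genes with a unique RefSeq entry, 998 of 183214 pairs (0.545%) shared a chromosome, whereas 99.94% of the promoter annotations did. The predicted targets were therefore not used to assign regions, and how the column was built is not given in the sources used here.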
